A study of Mus musculus with 4 samples.

Results

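The N6-methyladenosine (m6A) sites of 9 anterior neural patterning factor genes were described in mouse retinal organoids before and after acute degradation of METTL3. The genes were Otx1, Otx2, Meis1, Meis2, Zic1, Zic2, Nr2f1, Nr2f2 and Nr2e1, taken by name from 20001 gene names in the deposited site tables, and all 9 had listed sites in every library. Their listed positions added up to 979 of 1076788 unique positions in the series. All members encode transcription factors of 5 families. They help to divide the anterior neural plate into forebrain, midbrain and eye territories, and several remain active in the optic vesicle and in retinal progenitors.

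The starting cells carried the retinal reporter Rx:GFP, with FKBP12F36V-HA joined to the C-terminus of endogenous Mettl3, so untreated and treated libraries alike carry the degron allele. The small molecule dTAG13 directs proteins with this degron to the proteasome. The 2 treated libraries came from day 6 organoids after 8 h in 125 nM dTAG13, and the 2 untreated libraries (titled 0 h) came from day 6 organoids without it, collected at the same time. The genotype field names Mettl3 for untreated replicate 1 and Mettl4, Mettl5 and Mettl6 for the other libraries, whereas METTL3 alone is given in the title and the design text. The tables hold RNA reads alone, so loss of the METTL3 protein could not be checked. No group treated with dTAG13 but lacking the degron is among the libraries used here, and the labels do not say whether replicates were separate cultures. Errors and p-values therefore measure the spread between libraries, which may be technical.

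m6A is placed on nuclear mRNA by a complex whose catalytic subunit is METTL3, mostly in long internal exons and near stop codons, and is known to shorten the life of many transcripts that encode cell fate regulators. In GLORI, unmodified adenosine is deaminated to inosine and read as G, while m6A stays A. The level of a site is its A reads over all its A and G reads, in percent. Only called sites are listed, with at least 15 reads, at least 5 A reads and a level of at least 10%. A position missing from a library can thus be unmethylated, below these limits or uncovered.

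Untreated libraries listed 325 and 291 sites in the 9 genes, and treated libraries 224 and 270. The median number of reads per listed site was 118 and 130 without and 116.5 and 142 with dTAG13. In the second library of either group the same position was seldom listed again: 863 of the 979 positions (88.2%) were in 1 library, 102 in 2, 13 in 3 and 1 in all 4. Across the series the share in 1 library was 92.6%.

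The retinal progenitor markers Rax, Six3, Six6, Lhx2, Pax6, Sfrp2 and Fgf15 were listed in all 4 libraries, with a summed gene coverage of 3748 and 4742 without and 2634 and 3527 with dTAG13. The largest part came from Sfrp2, with 1786 and 2407 without and 1174 and 1493 with dTAG13. Fgf15 went the other way, at 45.6 and 42.1 without and 50.6 and 48.7 with it. Coverage is not scaled to library depth, and the median gene had 99.2 and 103 without and 82.4 and 111 with dTAG13. The pluripotent cell markers Pou5f1, Nanog, Zfp42 and Dppa5a were also listed in all 4, with sums of 867 and 883 without and 615 and 799 with it. Of the neuron markers only Tubb3 was in all 4 libraries, of the endoderm markers only Sox17, and of the pigment epithelium markers Pmel and Tyrp1. Neither neural crest marker was in all 4, and the mesoderm markers T and Mesp1 were listed in none. For Tubb3 the untreated libraries had a coverage of 235 and 222 and the treated ones 143 and 244. Sox17 had 45.8 and 26.0 against 29.3 and 69.8, Pmel 105.1 and 148 against 115 and 125, and Tyrp1 41.3 and 35.4 against 31.5 and 96.2. Elavl3, Elavl4, Dcx, Sox10, Foxd3, Foxa2, Gata4 and Tyr were each listed in some libraries only, and a gene with no listed site has no coverage value, so these lists were not summed. The part of these cells in the results below was not tested.

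**Figure D1:**
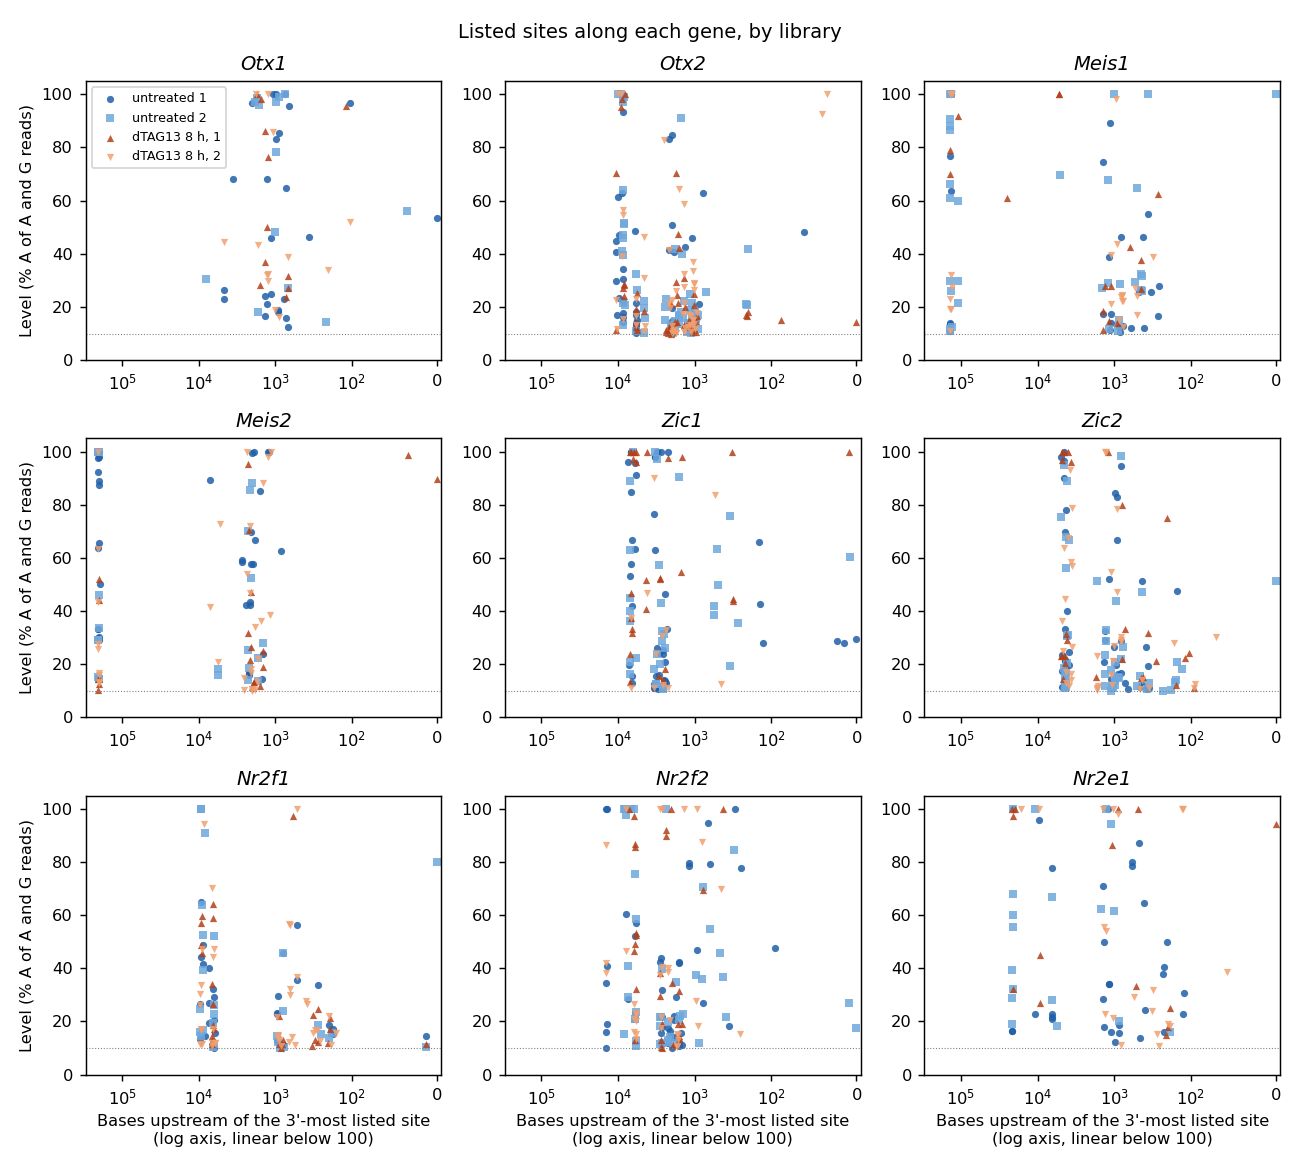
Each panel is 1 gene, with the distance of a listed site from the most 3′ listed site of that gene on the x axis (bases, log axis, linear below 100, 3′ to the right) and its level on the y axis (% A of A and G reads); colour and marker give the library, and the dotted line is the listing limit of 10%. Most clusters hold sites of untreated and treated libraries, while the most 5′ clusters of Nr2e1 and Nr2f2 lack sites of at least 1 library, and in Meis1 and Meis2 a 3′ and a 5′ cluster stand far apart.

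The share of listed positions close to the most 3′ listed site differed between the members. Of the positions listed under Otx1, 45 of 51 (88.2%) lay within 2000 bases of its most 3′ listed site. The share was 63.4% in Zic2, 63.3% in Nr2e1, 59.8% in Meis1, 51.4% in Otx2, 50.5% in Nr2f1 and 40.0% in Nr2f2. It was lowest in Meis2 (29.6%) and Zic1 (21.5%), whose median distances were 2316 and 3064 bases. These distances are genomic, counted from the outermost listed site and not from an annotated transcript end, so exon, intron and UTR were not assigned. The submitters' processing notes name mm10, yet only 69 of the 979 positions, all in Meis1 and Meis2, lie inside the interval that RefSeq gives the gene on GRCm38. The tables also list contigs that GRCm39 has and mm10 lacks (chr1_MU069434v1_random and chrUn_MU069435v1). The coordinates are therefore read as GRCm39 and given as listed, and no annotation or sequence was attached to them.

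OTX1 and OTX2 are homeodomain proteins of the forebrain and midbrain. OTX2 is needed for head formation and later for pigment epithelium and photoreceptor fate, and its paralog OTX1 acts in the cortex and sense organs. Otx1 (minus strand, listed sites from chr11:21944858 to chr11:21952836) had 25 and 13 listed sites without and 11 and 13 with dTAG13. Sites at a level of 40% or more numbered 14 and 9 without and 6 and 6 with it, so the treated libraries were below both untreated ones in that class. Otx1 had the most sites that were high in both untreated libraries, 4 of the 17 found over the members, followed by Meis2, Zic1, Zic2 and Nr2f1 with 3 each and Meis1 with 1.

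The clearest Otx1 site was chr11:21945751. It was at 85.4% (137 reads) and 98.9% (89 reads) in the untreated libraries, a mean of 92.1% ± 9.53 (SD, n = 2). In dTAG13 replicate 2 it was at 16.2% (Wilson 95% interval 11 to 23.1%, 142 reads), and it was not listed in dTAG13 replicate 1. These intervals cover counting error only. The treated value minus the untreated mean was -75.9 points. The 3 other Otx1 sites nearby were high in both untreated libraries and listed in neither treated one. They were chr11:21945610 at 100% and 100% (41 and 178 reads), chr11:21945829 at 83.2% and 78.5% (107 and 79 reads) and chr11:21945844 at 100% and 97.1% (115 and 35 reads). Absence of these 3 sites has no level, since the tables give none for an unlisted position. Reads were present near the last of them in dTAG13 replicate 2, which listed chr11:21945859 at 19.0% (295 reads).

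Other Otx1 sites varied more. At chr11:21946131 the level was 68.0% in untreated replicate 1 (97 reads), 50.0% in dTAG13 replicate 1 (70 reads) and 32.2% in dTAG13 replicate 2 (87 reads), with both treated values below the untreated one. At chr11:21945549 the order was different, with 12.4% and 27.0% untreated (193 and 215 reads) and 31.7% in dTAG13 replicate 1 (63 reads). The most read Otx1 site, chr11:21945077, had 643 reads and a level of 14.2% (Wilson 95% interval 11.7 to 17.1%) in untreated replicate 2, the only library that listed it.

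Otx2 (minus strand, chr14:48894254 to chr14:48904945) was the member with the most listed positions, 177. It had 44 and 55 listed sites without and 52 and 54 with dTAG13, and the groups overlapped. Its sites at 40% or more were fewer, 17 and 13 without and 7 and 11 with treatment, while sites of 10 to 40% numbered 27 and 42 without and 45 and 43 with it. The median level of its listed sites was 21.9% and 19.9% untreated and 15.7% and 18.7% treated, so both treated medians were below both untreated ones. Meis2 and Nr2f1 were separated in the same direction. Zic2 was separated in the other, with 23.5% and 17.3% untreated and 23.7% and 26.4% treated. Over all sites inside genes the medians were 28.2% and 27.0% untreated and 29.3% and 29.3% treated. The share of all genes separated by median level was not counted, and each median is over largely different sites. No Otx2 site was listed in more than 2 libraries. Of the 5 sites shared by the untreated libraries and the 7 shared by the treated ones, only chr14:48895342 reached 40% in either library, at 46.1% (219 reads) and 21.3% (352 reads) untreated. The most read Otx2 site, chr14:48900094, was at 10.4% in untreated replicate 1 (1758 reads) and 19.3% in dTAG13 replicate 1 (913 reads).

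Several deeply read Otx2 sites were listed in 1 untreated and 1 treated library. They fall outside the naming rule and were chosen after their values were seen. The site chr14:48896251 was at 84.8% (571 reads) in untreated replicate 1 and 12.8% (672 reads) in dTAG13 replicate 2. In the same libraries chr14:48896434 was at 83.3% and 41.4% (576 and 752 reads) and chr14:48895590 at 42.6% and 12.2% (1014 and 1294 reads). In the opposite direction, chr14:48902473 was at 20.8% (395 reads) in untreated replicate 2 and 100% (52 reads) in dTAG13 replicate 1, and chr14:48902878 was at 13.0% (207 reads) and 56.3% (158 reads) in the second replicates. None of these values has a replicate in its own group.

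MEIS1 and MEIS2 are TALE homeodomain proteins that act with PBX partners and help to switch on Pax6 in the developing eye. Meis1 (minus strand, chr11:18830446 to chr11:18968931) had 26 and 32 listed sites without and 16 and 24 with dTAG13, and the treated counts were the lower ones. At chr11:18831306, the Meis1 site listed in 3 libraries, the level was 12.6% and 15.3% untreated (286 and 334 reads) and 15% in dTAG13 replicate 2 (240 reads), so the treated value lay between the untreated ones. At chr11:18830802 the untreated libraries differed, with 54.8% (62 reads) and 100% (73 reads), and neither treated library listed the site. The most read site, chr11:18968369, had 2408 reads at 10.9% (Wilson 95% interval 9.70 to 12.2%) in untreated replicate 1.

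Meis2 (minus strand, chr2:115692185 to chr2:115896238) had 36 and 22 listed sites without and 21 and 32 with dTAG13, and the groups overlapped. Of its sites listed in 3 libraries, 3 are neighbours in the 3′ cluster. At chr2:115694220 the level was 99.3% (152 reads) and 88.3% (230 reads) untreated, with a mean of 93.8% ± 7.84 (SD, n = 2). It was 10.0% in dTAG13 replicate 2 (Wilson 95% interval 7.43 to 13.3%, 400 reads), which is the listing limit itself, a difference of -83.8 points. At chr2:115694283 it was 57.8% and 52.5% untreated (199 and 141 reads) and 26.6% in dTAG13 replicate 1 (286 reads), a difference of -28.6 points. The third of them, chr2:115694322, did not separate the groups, with 42.3% and 85.5% untreated (208 and 110 reads) and 72.1% in dTAG13 replicate 2 (68 reads).

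In the 5′ cluster of Meis2 the untreated replicates disagreed. At chr2:115891177 they were at 65.8% (73 reads) and 14.5% (152 reads), and dTAG13 replicate 1 was at 14.4% (202 reads). At chr2:115893843 they were at 30.3% (66 reads) and 100% (24 reads). The treated libraries disagreed at chr2:115895948, with 14.3% (70 reads) and 63.3% (49 reads). The most read Meis2 site, chr2:115694331, was at 21.7% in dTAG13 replicate 1 (497 reads).

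ZIC1 and ZIC2 are zinc finger proteins of the neural plate border and dorsal neural tube. ZIC2 is required for forebrain midline division and for the uncrossed projection of retinal ganglion cells. Zic1 (minus strand, chr9:91240302 to chr9:91247753) had the lowest ratio of treated to untreated listed sites among the members, 0.494, with 46 and 33 without and 27 and 12 with dTAG13. Its site chr9:91247219 was at 53.3% (274 reads) and 62.8% (207 reads) untreated, a mean of 58.0% ± 6.73 (SD, n = 2), and at 13.4% in dTAG13 replicate 1 (Wilson 95% interval 9.03 to 19.5%, 164 reads). The difference was -44.6 points. A pair of Zic1 sites was near complete in both untreated libraries and in neither treated list, chr9:91243434 at 100% and 97.3% (145 and 37 reads) and chr9:91243584 at 98.3% and 100% (117 and 152 reads).

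The untreated replicates differed at chr9:91243366, with 100% (52 reads) and 23.8% (21 reads), and at chr9:91242767, with 46.5% (71 reads) and 26.0% (96 reads). The most read Zic1 site, chr9:91240848, was found in dTAG13 replicate 2 alone, at 83.5% (Wilson 95% interval 79.9 to 86.6%, 467 reads), so a high level was also called after treatment. Sites at 90% or more numbered 12 and 4 without and 11 and 0 with dTAG13, and the groups overlapped.

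Zic2 (plus strand, chr14:122712819 to chr14:122717704) had 43 and 48 listed sites without and 26 and 39 with dTAG13, with both treated counts lower. Its most 5′ listed site, chr14:122712819, was at 97.9% (861 reads) and 75.4% (475 reads) untreated and at 22.9% in dTAG13 replicate 1 (Wilson 95% interval 18.0 to 28.8%, 231 reads). The difference from the untreated mean of 86.6% ± 15.9 (SD, n = 2) was -63.7 points. At chr14:122713239 the untreated libraries had 100% and 95.0% (49 and 60 reads), and at chr14:122717277 they had 51.3% and 47.2% (563 and 1053 reads). Neither position was listed after dTAG13. Reads were present on either side of chr14:122717277 in dTAG13 replicate 2, which listed chr14:122717240 (1120 reads) and chr14:122717358 (906 reads).

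Further 3′, chr14:122713389 was the only member position listed in all 4 libraries and hence the only one with a replicated comparison. Its level was 21.6% and 15.7% untreated (753 and 1905 reads) and 23.3% and 44.6% with dTAG13 (417 and 1179 reads). Both treated values were above both untreated ones, at means of 33.9% ± 15.1 and 18.7% ± 4.21 (SD, n = 2 each). The difference of 15.3 points did not pass the quasi-binomial test (limma-moderated, adjusted p = 0.368). Of 2321 sites of the series listed in all 4 libraries, 2.28% passed, and 2.20% passed as lower with dTAG13. Without dTAG13 replicate 2 the difference was 4.59 points (adjusted p = 0.879). At chr14:122716740 the untreated replicates had 84.5% (71 reads) and 14.0% (214 reads), at chr14:122717553 they had 47.5% (118 reads) and 20.8% (259 reads), and at chr14:122714028 the treated ones had 96.0% (25 reads) and 13.9% (122 reads). The most read Zic2 site, chr14:122717046, was at 10.7% in untreated replicate 1 (3070 reads).

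NR2F1 and NR2F2, also called COUP-TFI and COUP-TFII, are orphan nuclear receptors that pattern the cortex and the optic vesicle. Nr2f1 (minus strand, chr13:78337143 to chr13:78346830) was the member with more listed sites in both treated libraries, 28 and 28 without and 29 and 42 with dTAG13. The difference was in sites of 10 to 40% (21 and 20 without, 22 and 34 with dTAG13), while sites at 40% or more numbered 7 and 8 in each group. Its best replicated untreated site, chr13:78337923, was at 45.9% and 45.8% (961 and 793 reads) and was not listed after treatment. Reads were present beside it in dTAG13 replicate 1, which listed chr13:78337925 at 12.9% (621 reads). At chr13:78345960 the untreated levels were 48.9% and 52.6% (90 and 57 reads), and at chr13:78346430 they were 65.0% and 100% (40 and 21 reads), again with no treated listing.

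Nr2f1 also held the sole member site at 40% or more in both treated libraries, chr13:78346307 at 45.6% (79 reads) and 47.2% (180 reads), a mean of 46.4% ± 1.17 (SD, n = 2). This site was not listed in either untreated library. Close by, chr13:78346329 was at 48.7% and 16.8% (76 and 185 reads) and chr13:78346352 at 57.1% and 11.3% (42 and 141 reads) in the treated libraries. Near the 3′ end of the listed stretch, chr13:78337156 was at 14.7% and 10.5% untreated (483 and 485 reads) and 11.4% in dTAG13 replicate 1 (297 reads), with the treated value between the untreated ones. The most read Nr2f1 site, chr13:78338031, was listed in the treated libraries at 11.5% and 13.1% (854 and 2366 reads).

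Nr2f2 (minus strand, chr7:70001797 to chr7:70016376) had 45 and 42 listed sites without and 28 and 34 with dTAG13, with no overlap. At 40% or more it had 18 and 13 without and 13 and 12 with treatment, and the difference was mainly among sites of 10 to 40% (27 and 29 against 15 and 22). At chr7:70004579 the level was 21.7% in untreated replicate 2 (217 reads) and 12.9% and 21.7% in the treated libraries (217 and 129 reads). The untreated replicates differed at chr7:70007762, with 23.2% and 75.5% (185 and 102 reads), and at chr7:70007795, with 52.0% and 21.0% (50 and 62 reads). The most read site, chr7:70004035, was at 12.0% in untreated replicate 1 (2806 reads).

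NR2E1, also called TLX, is an orphan nuclear receptor that keeps neural stem cells and retinal progenitors dividing. Nr2e1 (minus strand, chr10:42438030 to chr10:42459487) had 32 and 18 listed sites without and 14 and 20 with dTAG13, and the groups overlapped. No Nr2e1 position was shared by the untreated libraries. Its site chr10:42438219 was at 15.9% in untreated replicate 2 (289 reads) and 25.1% and 18.3% in the treated libraries (219 and 218 reads), both above the untreated value. Sites of 40 to 90% numbered 9 and 6 without and 2 and 2 with dTAG13. Those at 90% or more numbered 3 and 4 without and 6 and 7 with it. The share of all genes separated in these classes was not counted. The most read site, chr10:42438839, was at 11.0% in dTAG13 replicate 2 (400 reads).

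**Figure D2:**
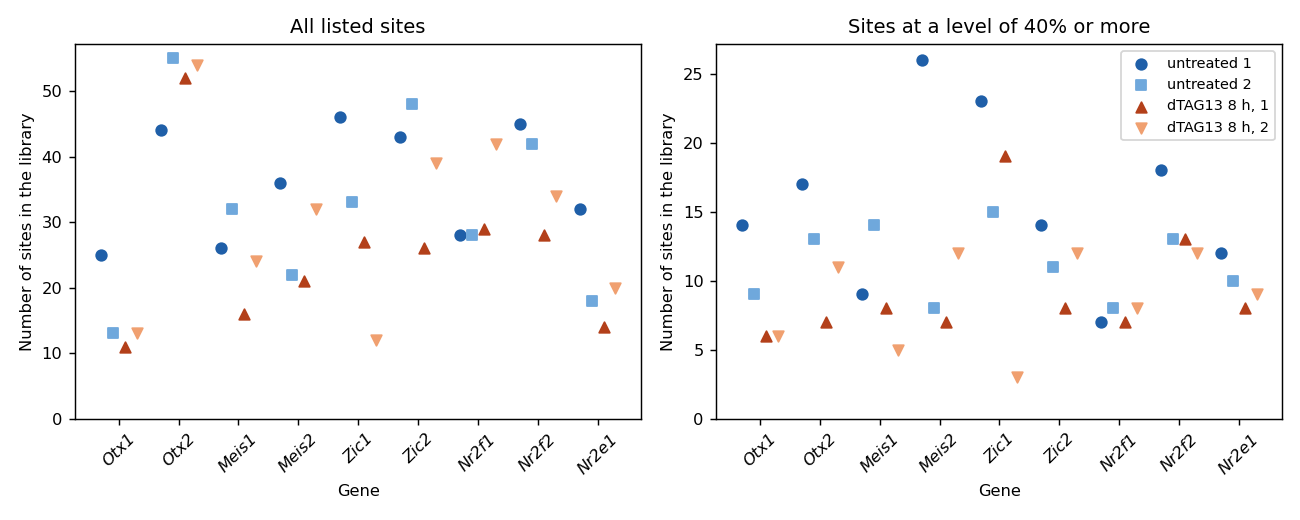
The number of listed sites (left) and of sites at a level of 40% or more (right) is plotted on the y axis for each gene, with 1 marker per library. Both treated libraries lie below both untreated ones in Meis1, Zic1, Zic2 and Nr2f2 on the left and in Otx1, Otx2, Meis1 and Nr2e1 on the right, and above them in Nr2f1 on the left.

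Summed over the members, listed sites had a ratio of treated to untreated means of 0.802, with SDs of 32.5 and 24.0 sites (n = 2 each). The ratio over all sites inside genes was 0.714. Both treated sums were below both untreated sums, and 2 against 2 libraries cannot give an exact two-sided permutation p below 0.33. Listed sites were fewer in both treated libraries in 4 of the 9 genes (Meis1, Zic1, Zic2 and Nr2f2), against 44.6% of 12520 genes listed in all 4 libraries. They were more numerous in 1 member, Nr2f1, against 4.53% of those genes. The share of members with fewer sites was thus near that of all genes. Without untreated replicate 2, or without dTAG13 replicate 2, 7 members had fewer listed sites. Groups separate more easily with 1 library left out, so the share of 44.6% does not apply to that count.

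Sites at 40% or more were 140 and 101 without and 83 and 78 with dTAG13, with means of 120.5 ± 27.6 and 80.5 ± 3.54 (SD, n = 2 each) and a ratio of 0.668. Over all sites inside genes the ratio was 0.772. As a share of listed member sites they were 43.1% and 34.7% without and 37.1% and 28.9% with dTAG13, and the groups overlapped. Over all sites inside genes that share was 36.6% and 34.8% without and 38.3% and 38.8% with it. Fewer sites at 40% or more in both treated libraries were counted in 4 of 9 genes (Otx1, Otx2, Meis1 and Nr2e1). Over all genes, whatever their number of such sites, the share was 24.9%. Without untreated replicate 2 the count of members was 8. The share of 24.9% does not apply to it, since groups separate more easily with 1 library left out. Between 40 and 90% the member sites went from 97 and 62 to 43 and 47 (ratio 0.566, against 0.714 over all sites inside genes). At 90% or more they went from 43 and 39 to 40 and 31, where the groups overlapped (ratio 0.866, against 0.849). Gene coverage was the lowest of the 4 libraries in dTAG13 replicate 1 for 7 of the 9 genes, and its part in these counts was not tested.

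**Figure D3:**
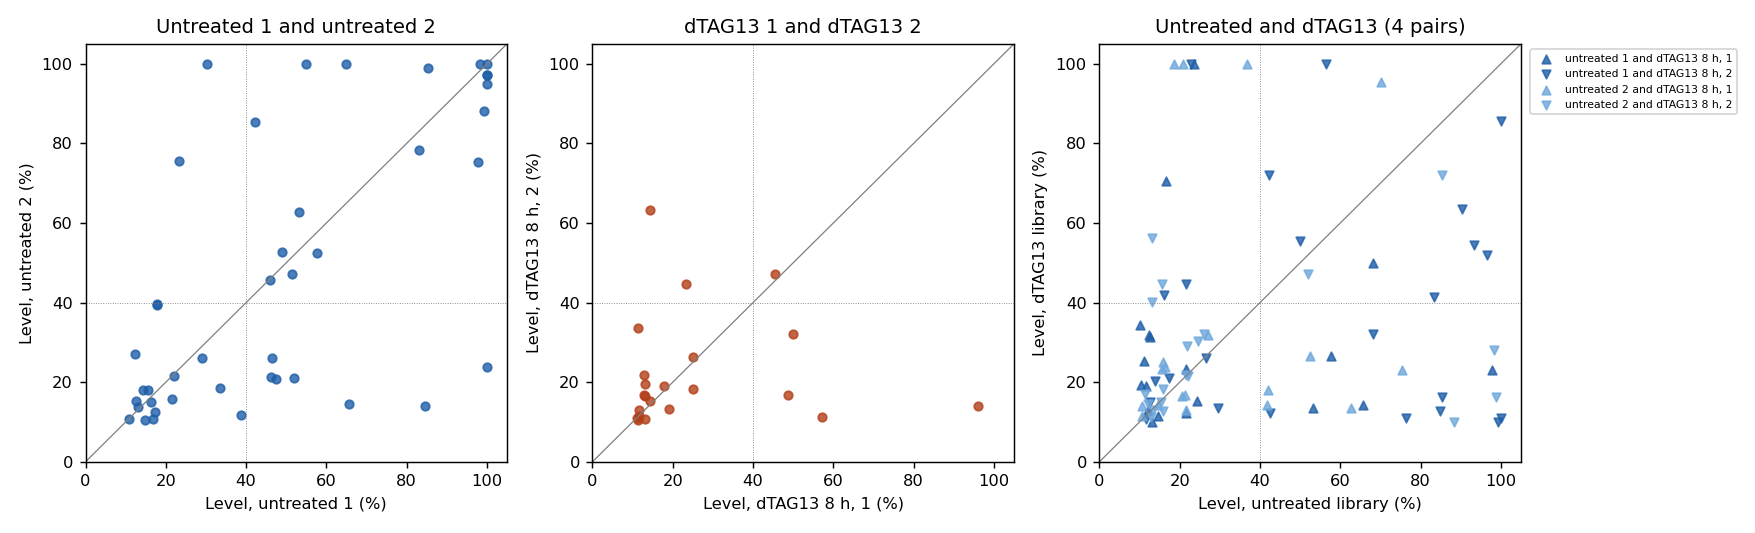
Each point is a member site listed in both libraries of a pair, with its level in the libraries named on the axes (% A of A and G reads); the third panel pools the 4 pairs of 1 untreated and 1 dTAG13 library, and dotted lines mark 40%. The untreated pair has 17 of 43 sites at 40% or more in both libraries and the dTAG13 pair 1 of 22, while mixed pairs have points far off the diagonal on both sides.

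Sites that were listed again within a group differed in level between the groups. The untreated libraries shared 43 member sites, and 17 of them (39.5%) were at 40% or more in both libraries, against 22.9% of such sites over all genes. The dTAG13 libraries shared 22, and 1 of them (4.55%, in Nr2f1) was at 40% or more in both, against 8.62% over all genes. The 17 sites had a median untreated mean of 82.5%, and 6 of them were listed in a treated library. Where the untreated mean was 40% or more (22 sites), 7 were listed in a treated library (31.8%, against 14.2% of 9150 sites over all genes). The median absolute difference between replicates was 5.95 points at the 43 untreated sites and 4.88 points at the 22 treated ones. With at least 50 reads in both libraries, the sites at 40% or more in both numbered 12 in the untreated and 1 in the treated pair.

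How often a site was listed again was counted from the sites that untreated replicate 1 covered with 50 reads or more. Of its 87 member sites at 40% or more, untreated replicate 2 also listed 24.1% (Wilson 95% interval 16.4 to 34.1%). In dTAG13 replicate 1 the share was 5.75% (2.48 to 12.8%). It was 12.6% (7.21 to 21.2%) in the other treated library, and the intervals of untreated replicate 2 and dTAG13 replicate 2 overlapped. All these intervals treat the sites as independent and leave out the spread between libraries. With untreated replicate 2 as the reference (59 sites), the shares were 25.4% in untreated replicate 1 and 8.47% in each treated library. With the treated libraries as the reference, high sites of dTAG13 replicate 1 (35 sites) were listed again in 2.86% and 5.71% of cases in the untreated libraries and in 8.57% in dTAG13 replicate 2. High sites of dTAG13 replicate 2 (45 sites) were listed again in 17.8% and 8.89% in the untreated libraries and in 4.44% in dTAG13 replicate 1. High treated sites were thus seldom listed in the other treated library, with wide intervals (2.96 to 22.4% and 1.23 to 14.8%). Over all genes, high sites of dTAG13 replicate 1 were listed again in 5.69% and 5.70% in the untreated libraries and in 4.28% in dTAG13 replicate 2. For high sites of dTAG13 replicate 2 over all genes, the shares were 5.15% and 5.28%, and 3.33% in dTAG13 replicate 1. For sites under 40% the shares from untreated replicate 1 were 11.3%, 8.33% and 5.36%. Over all genes, sites of untreated replicate 1 at 40% or more were listed again in 14.1% of cases in untreated replicate 2 and in 3.99% and 4.43% with dTAG13. From untreated replicate 2 the shares over all genes were 13.8% in untreated replicate 1 and 3.88% and 4.31% with dTAG13.

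**Figure D4:**
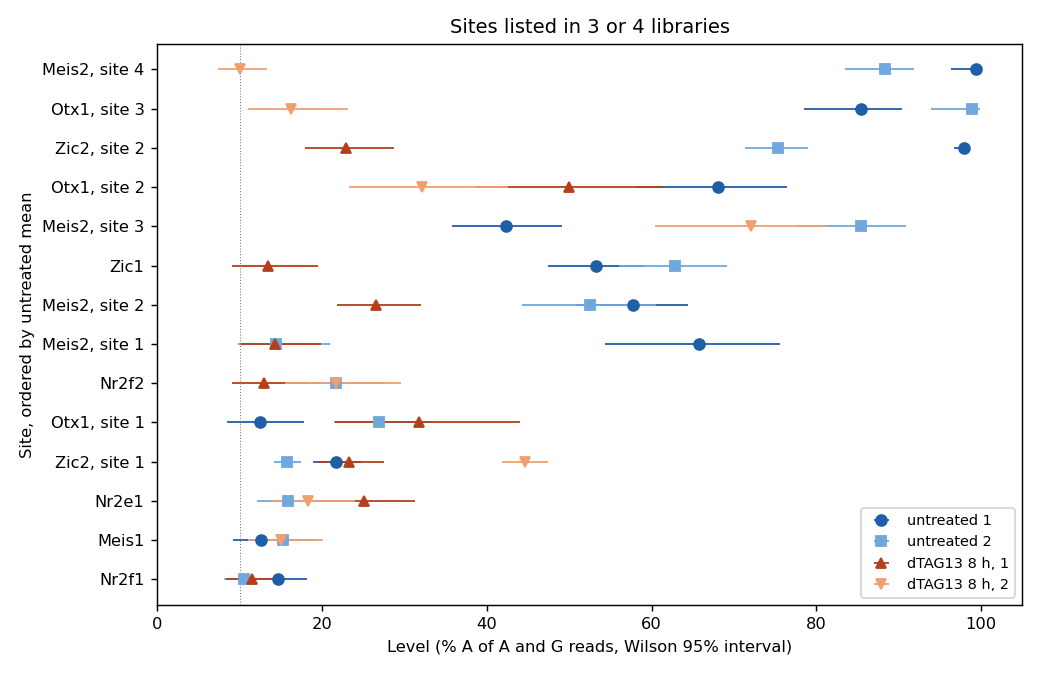
Each row is 1 of the 14 member sites listed in 3 or 4 libraries, ordered by untreated mean, with the level on the x axis (% A of A and G reads), 1 marker per library and Wilson 95% intervals. In 7 of the 8 rows with an untreated mean of 40% or more the treated markers lie left of every untreated marker, and in the other 6 rows they do so in none.

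The 14 member sites listed in 3 or 4 libraries were split by their untreated mean, which is itself part of the comparison. In all, 7 had every treated value below every untreated value and 3 the reverse, against 34.2% and 30.9% of 7285 sites over all genes. The 7 lower sites were all among the 8 at 40% or more (3 in Meis2, 2 in Otx1, and 1 each in Zic1 and Zic2). Over all genes 68.1% of 1621 such sites did so. Of the 6 sites under 40%, none was lower throughout, against 24.4% of 5664 sites over all genes, and 3 were higher. At the 7 lower sites the treated mean minus the untreated mean ranged from -83.8 to -25.8 points. The smallest of these, at chr2:115891177 in Meis2, rests on untreated replicate 1 (65.8%), since untreated replicate 2 was at 14.5% and the treated library at 14.4%. Without dTAG13 replicate 1, only 4 of the 8 sites could be compared, and 3 were lower.

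With these sites included in the quasi-binomial model, 0 of 9092 sites passed an adjusted p under 0.05, while 1072 (11.8%) had an unadjusted p under 0.05. The unadjusted p was 0.0075 at chr2:115694220 in Meis2 and 0.0187 at chr2:115694283 in Meis2, with adjusted p of 0.207 and 0.284. In Otx1 it was 0.0174 at chr11:21945751 (adjusted p = 0.278), and in Zic1 0.0186 at chr9:91247219 (adjusted p = 0.284). At chr14:122712819 in Zic2 it was 0.114 (adjusted p = 0.576), where the untreated replicates differed most among these 5 sites. The other lower sites had 0.121 at chr11:21946131 in Otx1 (adjusted p = 0.589) and 0.495 at chr2:115891177 in Meis2 (adjusted p = 0.881). In the opposite direction, chr14:122713389 in Zic2 had 0.0392 (adjusted p = 0.387). A lone value in a group was taken to vary as the other groups do. In the model of sites listed in all 4 libraries, the count of 53 over the series became 0 with the replicate number as a block.

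Sites listed in just 1 untreated and 1 treated library moved in both directions. Of 52 such member sites, 11 (21.2%) were at least 20 points lower with dTAG13 and 12 (23.1%) at least 20 points higher, with a median change of 1.57 points. Over all genes these shares were 12.1% and 20.9% of 37019 sites. With at least 100 reads in both libraries, 5 of 33 member sites (15.2%) were lower and 4 (12.1%) higher. At that read limit the shares over all genes were 6.59% lower and 10.9% higher of 17998 sites. Of the 11 lower sites 6 were in Otx2, 2 in Zic1, 2 in Zic2 and 1 in Otx1. Of the 12 higher sites 4 were in Nr2f2, 2 each in Otx2, Meis2 and Zic2, and 1 each in Nr2f1 and Nr2e1. The lower sites included chr9:91243722 in Zic1, from 76.5% to 11.1% (293 and 81 reads), and chr14:122716891 in Zic2, from 98.4% to 28.2% (125 and 142 reads). The higher ones included chr14:122713149 in Zic2, from 18.5% to 100% (65 and 65 reads), and chr7:70004060 in Nr2f2, from 13.0% to 40.2% (500 and 376 reads). These 4 were chosen after their values were seen.

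**Figure D5:**
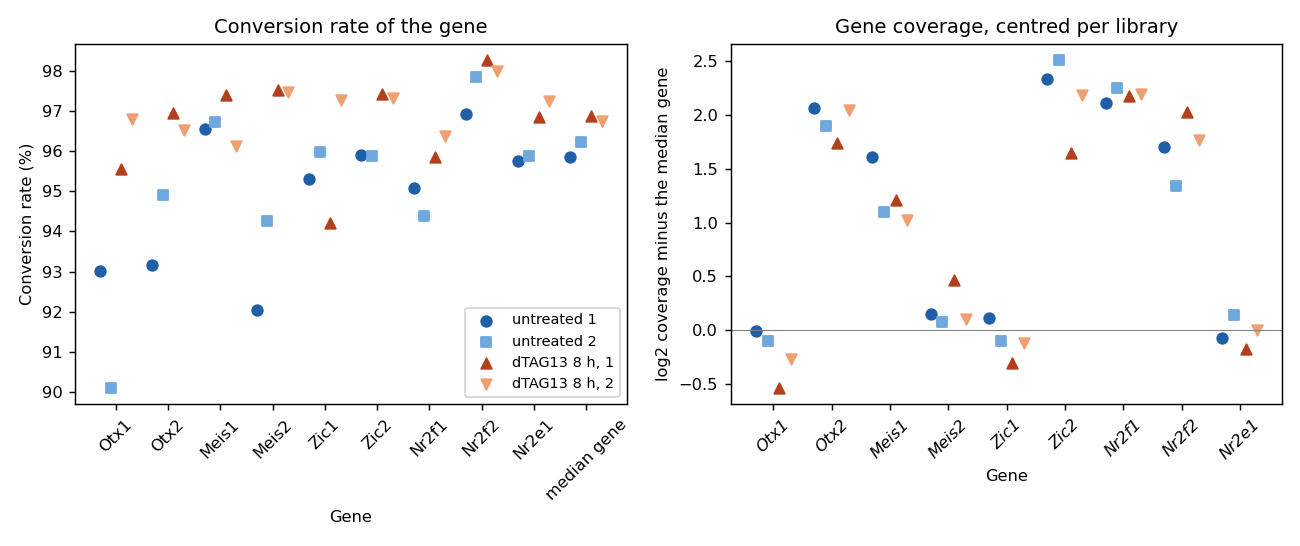
The left panel plots the conversion rate (% of A read as G in the gene; the axis does not start at 0) and the right panel the log2 gene coverage minus that of the median gene, with 1 marker per library. Both treated conversion rates are above both untreated ones in every member except Meis1 and Zic1, and coverage differs in direction between members.

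The deposited conversion rate of a gene is the share of its A read as G, so that its complement, the unconverted share, holds m6A together with incompletely converted A. In Meis2 the rate was 92.0% and 94.3% untreated and 97.5% and 97.5% treated, a difference of 4.34 points. In Otx1 it was 93.0% and 90.1% against 95.6% and 96.8%, a difference of 4.61 points, and in Otx2 93.2% and 94.9% against 97.0% and 96.5%, a difference of 2.71 points. In Zic2 it was 95.9% and 95.9% against 97.4% and 97.3%. Nr2f1 (95.1% and 94.4% against 95.9% and 96.4%), Nr2f2 (96.9% and 97.8% against 98.3% and 98.0%) and Nr2e1 (95.8% and 95.9% against 96.9% and 97.3%) were also separated. Meis1 (96.6% and 96.7% against 97.4% and 96.1%) and Zic1 (95.3% and 96.0% against 94.2% and 97.3%) overlapped.

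Both treated rates were thus above both untreated rates in 7 of 9 members, against 40.9% of 12520 genes. The same separation was seen in 7 of the 7 retinal progenitor markers and 3 of the 4 pluripotent cell markers, so it was not particular to the members. In no member were both treated rates lower, against 6.05% of genes. The median gene went from 95.8% and 96.2% to 96.9% and 96.7%. With limma on log2 odds of the rate, 0 genes of the series passed an adjusted p under 0.05, and 1407 genes (11.2%) were higher at an unadjusted p under 0.05. The log2 odds change was 1.50 ± 0.31 (SE) in Meis2, 1.21 ± 0.35 in Otx1 and 0.90 ± 0.31 in Otx2, with adjusted p of 0.369, 0.369 and 0.388 and unadjusted p of 0.0042, 0.0172 and 0.0309. The other 6 members changed by 0.08 (Meis1) to 0.67 (Zic2) with adjusted p of 0.406 to 0.928. The median change was 0.53 over the members and 0.30 over all genes. The parts of chemical conversion and of m6A in these rates were not tested.

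Gene coverage, a deposited value not scaled to library depth, was compared relative to the median gene of each library. In bulk organoid RNA, fewer cells of a type and less RNA per cell cannot be told apart. For Zic2 the values were 501 and 587 in untreated and 258 and 504 in treated libraries, and limma gave a log2 change of -0.51 ± 0.25 (SE, adjusted p = 0.445). Nr2f2 had 323 and 261 against 336 and 377, a change of 0.38 ± 0.24 (adjusted p = 0.518), and Otx1 had 98.6 and 96.3 against 56.9 and 92.4, a change of -0.34 ± 0.21 (adjusted p = 0.512). With 1 library left out, the change ranged from -0.78 (without dTAG13 replicate 2) to -0.24 (without dTAG13 replicate 1) in Zic2. In Nr2f2 it was 0.19 without untreated replicate 2 and 0.24 without dTAG13 replicate 1, and in Otx1 -0.21 without dTAG13 replicate 1. After centring, both treated values were below both untreated ones in Otx1, Zic1 and Zic2, against 29.2% of genes, and above them in Nr2f2, against 17.0%. The other 6 members had changes between -0.24 (Meis1) and 0.17 (Meis2) with adjusted p of 0.670 to 0.991. No member passed, and 0 of 12520 genes did, with 1595 (12.7%) at an unadjusted p under 0.05. The median change was -0.12 over the members and -0.07 over all genes.

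Coverage of the other members was as follows. Otx2 had 414 and 385 without and 275 and 457 with dTAG13. Meis1 had 302 and 221 against 191 and 225, and Meis2 had 110.4 and 109 against 114 and 119. Zic1 had 107 and 96.5 against 66.7 and 102. Nr2f1 had 427 and 491 against 372 and 509, and Nr2e1 had 94.3 and 114 against 72.9 and 111. After centring, Zic1 was the only one of these 6 whose groups did not overlap.

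The other genes of these pathways were read from a list of relatives and partners and a list of regional patterning genes. Of 13 relatives (Crx, Meis3, the Pbx, Pknox and other Zic genes, Nr2f6 and Nr2e3), 12 were listed in any library and 10 in all 4, and Nr2e3 was listed in none. In 5 of the 10 the conversion rate was higher and in 1 lower in both treated libraries, and 3 had fewer listed sites. Of 22 regional patterning genes, 18 were listed in any library and 10 in all 4. Dlx1, Gbx2, Lhx1 and Nkx2-1 were listed in none. In 4 of these 10 the conversion rate was higher and in 4 listed sites were fewer in both treated libraries. Of 12520 genes listed in all 4 libraries, the rate was so higher in 40.9% and lower in 6.05%. Listed sites were fewer in 44.6% of them. In both lists 0 genes passed for coverage or conversion, and 0 of 1 and 0 of 2 tested sites passed for level. The median log2 coverage change was -0.02 for relatives and -0.04 for regional genes.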

How the data were processed

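GLORI libraries of day 6 retinal organoids, 2 untreated and 2 with dTAG13, were used as deposited site tables. Per the file headers, the authors give A counts and A plus G counts per called site, the level as a ratio (fraction), gene coverage as a signal, a gene conversion rate (fraction), and p-values with an adjusted form. Per the submitters' processing notes the build is mm10; aligner and caller are not given in the sources used here. The highest adjusted p listed was 0.00401. Libraries listed 335607 and 350462 (untreated) and 220034 and 263069 (dTAG13) sites.

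Levels were tested per site with a quasi-binomial model (limma 3.58.1 moderated dispersion, not under 1; at least 20 reads in all 4 libraries). Log2 coverage, centred on each library's median gene, and log2 odds of conversion were tested with limma in genes listed in all 4 libraries (R 4.3.3, Python 3.11.15). Benjamini-Hochberg adjustment covered each whole table, at 0.05. The fits were also run on simulated data with 1 fixed spread for all sites or genes, unlike these libraries, and no result rests on that run. Same-numbered replicates did not deviate together (correlations of 0.0385, 0.00227 and 0.00829 for levels, coverage and conversion), so replicate numbers were not treated as pairs. Sites were named when listed in at least 3 libraries, when shared within a group with a level of 40% or more in either library, or when most read in the gene. The members and lists were chosen with earlier results of these data known. Alternatives changed read limits, level limits, centring, test, replicate block and each library left out.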

Additional observations from a re-analysis of the deposited data

How the results depend on the processing

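The count of 53 sites with a changed level over the series became 0 with the replicate block and 0 when sites in at least 3 libraries were fitted. Fisher's exact test on summed replicates gave 531. Fits with 1 library left out took in other sites, so their counts of passing sites are not compared. Without centring, 15 genes passed for coverage in place of 0, and conversion gave 0 under every alternative run. Member sites at a high level in both untreated libraries numbered 17 at 40%, 13 at 50% and 26 at 20%, and in both dTAG13 libraries 1, 0 and 4 (these limits and the leave-out counts that follow were chosen after seeing the data). Leaving out 1 library gave 4 to 7 members with fewer listed sites, 4 to 8 with fewer sites at 40% or more, 7 to 8 with a higher conversion rate and 3 to 7 lower sites among those in 3 or 4 libraries. Groups separate more easily with 1 library left out, and no share over all genes is set beside these counts. The member ratio of listed sites kept its direction (0.727 to 0.877 with 1 library left out), as did that of sites at 40% or more (0.575 to 0.797). The log2 coverage change took both signs when 1 library was left out in Otx2 (-0.25 to 0.061, above 0 without dTAG13 replicate 1), Meis1 (-0.49 to 0.020, above 0 without untreated replicate 1), Meis2 (-0.0088 to 0.35, below 0 without dTAG13 replicate 1) and Nr2f1 (-0.064 to 0.080, below 0 without untreated replicate 1 and, at -0.0037, without dTAG13 replicate 2). Without centring the change in Nr2f1 was -0.074. The log2 odds change of conversion did so in Meis1 (-0.21 to 0.38, below 0 without dTAG13 replicate 1) and Zic1 (-0.44 to 0.69, below 0 without dTAG13 replicate 2), and when centred it was -0.24 in Meis1 and -0.20 in Zic1. At the Zic2 site listed in all 4 libraries, adjusted p was 0.695 with the replicate block and 1.55e-52 by Fisher's exact test on summed replicates, which leaves out the spread between libraries. Other causes were not tested. With 2 libraries a group and most sites listed once, a loss of level below the listing limits could not be measured.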
